A study of Mus musculus with 16 samples.

Results

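Cytotoxic CD8+ T cells that had been in culture for 5 days and carried both PD-1 and TIM-3 (labelled Tex) were compared with cells sorted on day 2 that carried PD-1 but not TIM-3 (labelled Teff1). The members were chosen by their sample labels, and they are 6 of the 12 RNA-seq libraries of the series, 3 in each group. The whole series has 16 samples, and its 4 Hi-C samples were not analysed here. All cells began as naive CD8+ T cells from the spleens of C57BL/6 mice, with no genetic change stated. They were stimulated with antibodies against CD3e and CD28, each at 10 µg/ml, and received recombinant IL-2 at 300 U/ml after the first night. Each library was made from total RNA of 200000 sorted cells. Teff2, the TIM-3 negative PD-1+ cells of day 5 (3 libraries), is given beside Tex, because between Teff1 and Tex the day of culture and the TIM-3 sort change together and their parts cannot be told apart. The cells were activated in a dish without tumour or infection, and whether replicates are separate mice or separate cultures is not given in the labels. Every p-value here is therefore set by the scatter among these libraries, part or all of which may be technical.

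CD8+ T cells that meet antigen divide and become effectors that kill through granules holding perforin and granzymes and through cytokines such as interferon gamma. Under lasting stimulation they take up inhibitory receptors, among them PD-1 and TIM-3, and enter states called exhausted, which keep part of the killing machinery while losing traits of naive and memory cells. Small calcium-binding S100 proteins, annexins, galectins and the nuclear lamina also change as T cells differentiate, and they serve membrane repair, migration and the shape of the cell and its nucleus.

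Library totals ran from 17315669 to 21162206 counts, and a count of 3 corresponded to 0.143 to 0.182 CPM (counts per 1000000 counts of the library, after TMM scaling). Across genes, log2 CPM correlated with r of 0.970 to 0.989 within Teff1, 0.962 to 0.987 within Tex and 0.949 to 0.976 between them. In both groups replicate 1 stood apart. Its genes of cholesterol synthesis had a median deviation from the group mean of -1.24 in Teff1 and -0.90 in Tex on the log2 scale, and its interferon-stimulated genes one of -0.80 and -0.98. For genes of G2 and M phase it was -0.24 in Teff1 and -1.24 in Tex. Summed CD8 T cell markers had 2126 to 2341 CPM in Teff1 and 2120.0 to 2328 in Tex (7 of 7 genes in the file). The 10 macrophage and monocyte markers had 10.1 to 14.4 CPM in Teff1 and 18.2 to 26.1 in Tex, nearly all of it Hmox1 and Cd68, while Lyz2, Csf1r, C1qa and Marco stayed under 0.5 CPM in each library. Markers of NK cells (8 genes) had 13.04 to 42.7 and 47.9 to 76.6 CPM, led by Eomes, which T cells also use. The gamma delta T cell sum (5 of 7 genes found, led by Tcrg-C2) had 1.09 to 2.05 and 4.81 to 7.75 CPM, that of B cells (9 of 10 found) 197 to 307 and 90.6 to 182. The CD4 and regulatory T cell sum (6 genes) had 1011 to 1339.8 and 1196 to 1862, led by Il2ra, which activated CD8+ cells also express. Dendritic cell markers (8 genes, Siglech at 0) had 80.4 to 255 and 234 to 319, led by Bst2, and the 6 MHC class II genes 56.99 to 80.4 and 64.3 to 109 CPM. Of the dendritic cell markers, Batf3 had means of 33.6 and 82.3 CPM and Zbtb46 of 2.95 and 10.7. Flt3, Xcr1, Clec9a and Itgax had means of at most 0.849 CPM. Stromal and endothelial markers (9 genes, Cdh5 at 0) had 56.4 to 76.9 and 18.8 to 57.5, and the neutrophil, erythroid and platelet sums stayed under 7 CPM in every library, with S100a8, Retnlg, Pf4, Ppbp and Gp1bb at 0. What part these markers have in the results was not tested.

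The transcripts of the sorted proteins were read first. Havcr2, which encodes TIM-3 (chromosome 11, 46454931 to 46481255), had 0.523, 0.380 and 0.182 CPM in the 3 Teff1 libraries and 34.6, 10.9 and 38.4 CPM in Tex. The groups do not overlap, and Teff2 had 0.612, 0.258 and 0.430 CPM. Havcr2 was also the 1 gene called between Tex and Teff2 without regard to replicate numbers (0.00698% of 14332 tested). Because the sort used this protein, its fitted 74.3-fold difference is a check of the labels and no finding. Pdcd1, the gene of PD-1, for which both groups were sorted, had 106, 72.2 and 93.6 CPM in Teff1 and 169, 165 and 241 in Tex, without overlap, but its difference did not pass the test (log2 fold change 1.08, SE 0.33, adjusted p = 0.106). Cd8a had 770.1 ± 22.8 CPM in Teff1 and 793 ± 51.5 (SD, n = 3, as for each mean below) in Tex. The adhesion receptor Cd44 had 106, 73.6 and 84.3 CPM in Teff1 and 469, 223 and 208 in Tex (log2 fold change 1.77, SE 0.50, adjusted p = 0.0829).

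Between day 2 effectors and day 5 TIM-3 positive cells, more genes rose than fell. Of 14332 genes tested, 309 were higher in Tex (2.16%) and 122 lower (0.851%) at an adjusted p under 0.05 (quasi-likelihood test of edgeR, adjusted by Benjamini-Hochberg), in all 3.01%. At least 2-fold differences were found for 263 of the higher and 81 of the lower genes. The median log2 fold change over all genes tested was -0.01, and 1342 higher and 1026 lower genes had an unadjusted p under 0.05. The highest points in the plot of all genes include the unconventional myosin Myo10, S100a11 and S100a10, the receptor tyrosine kinase Axl and Upp1, an enzyme of uridine breakdown, all higher in Tex, and the cytokine receptor gene Il6ra, lower in Tex. The number of calls depended on single libraries. It was 174, 112 and 203 without Teff1 replicates 1, 2 and 3, and 245, 253 and 132 without Tex replicates 1, 2 and 3. Without both replicates 1 it was 121, and 84 of the 309 higher and 24 of the 122 lower genes remained called. In bulk RNA, fewer cells of a kind and less RNA per cell cannot be told apart.

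**Figure D1:**
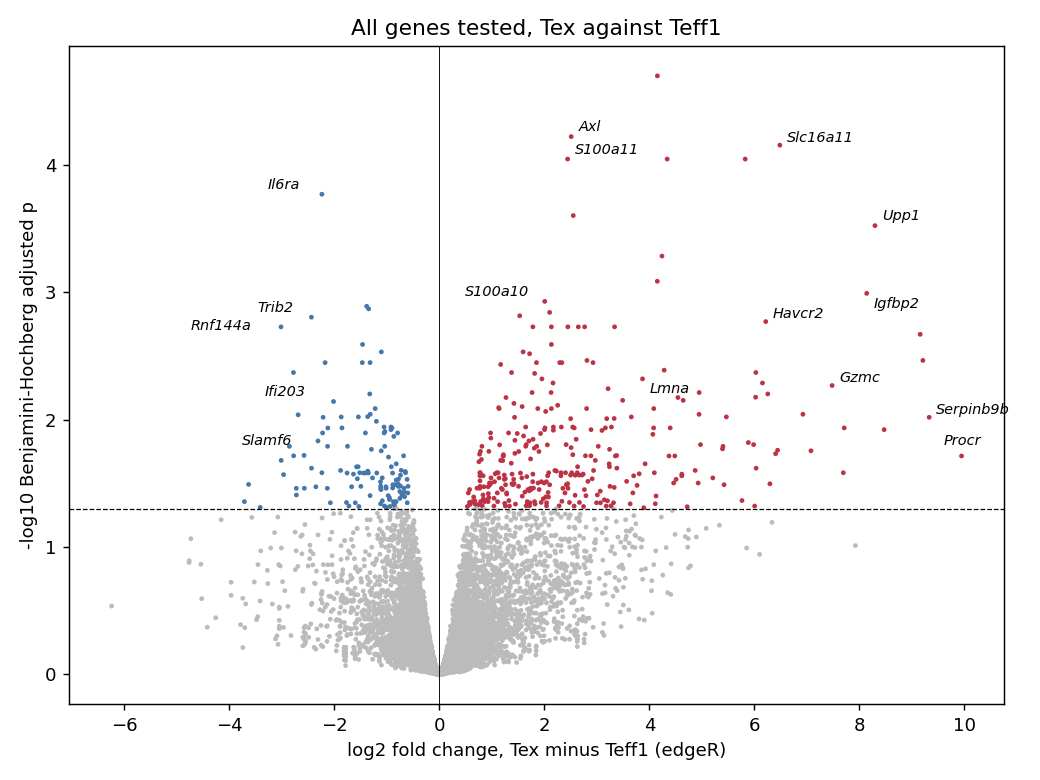
Each point is 1 of 14332 genes, with the log2 fold change of Tex against Teff1 (3 libraries each) on the x axis and -log10 of the adjusted p on the y axis. Red points are the 309 genes called higher in Tex and blue points the 122 called lower, above the dashed line at an adjusted p of 0.05.

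A list of S100, annexin, galectin and cytoskeletal genes held more called genes than any other of the 40 lists examined. Of its 31 members, all tested, 13 rose in Tex (2.16% of all genes tested did) and none fell, nor did any have an unadjusted p under 0.05 in that direction. Their median log2 fold change was 1.78, against -0.01 over all genes, and 22 members had Tex libraries all above the Teff1 libraries, as did 11.4% of all genes tested, while 9.67% of them had Tex libraries all below. All 6 S100 genes of the list rose, as did 3 of 8 annexins and 2 of 3 galectins. Lmna, the gene of lamins A and C, and Capg, which caps actin filaments, make up the 13. The list was chosen with earlier results of these data known, so its direction is not independent evidence.

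Promoters of 3 of these genes are shown because their transcripts moved together, with any match to the AP-1 motif TGANTCA in capitals. AP-1 is a family of transcription factors switched on by T cell receptor signals. The sequences are the 250 bases before the start of the gene, from RefSeq on GRCm38.p6, read 5′ to 3′ on the strand of the gene, and these genes were chosen after their values were seen.
S100a11 (chr3:93520246-93520495, plus strand): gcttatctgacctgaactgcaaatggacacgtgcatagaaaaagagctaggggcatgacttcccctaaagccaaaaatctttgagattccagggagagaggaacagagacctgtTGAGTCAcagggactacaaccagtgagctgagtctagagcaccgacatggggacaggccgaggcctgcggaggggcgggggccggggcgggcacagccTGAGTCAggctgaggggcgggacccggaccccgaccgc
Anxa2 (chr9:69453433-69453682, plus strand): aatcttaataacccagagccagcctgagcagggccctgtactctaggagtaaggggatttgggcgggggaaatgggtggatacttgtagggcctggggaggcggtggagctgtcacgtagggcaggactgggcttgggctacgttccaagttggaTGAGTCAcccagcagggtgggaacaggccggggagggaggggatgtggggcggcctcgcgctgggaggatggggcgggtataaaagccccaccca
S100a6 (chr3:90612644-90612893, plus strand): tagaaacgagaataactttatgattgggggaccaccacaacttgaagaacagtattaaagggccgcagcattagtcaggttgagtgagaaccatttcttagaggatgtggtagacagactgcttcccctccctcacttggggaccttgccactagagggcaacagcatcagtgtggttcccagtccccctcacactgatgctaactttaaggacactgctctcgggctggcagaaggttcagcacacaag
S100a11 has 2 matches, which begin 136 and 38 bases before the start, and Anxa2 has 1, which begins 95 bases before it. No match to the other 6 motifs searched overlaps them, and S100a6 has no such letters in this window. Promoters were found for 11 of the 13 genes that rose, and 2 of the 11 hold the motif in these 250 bases. For S100a13 and Lmna, which lack the motif, the window overlaps the gene position itself. Over the window from 250 bases before to 50 after the start, on both strands, 4 of 26 promoters of the whole list held it (15.4%), against 7.93% of 27025 promoters in the table and 5.03% of the genes tested. Of the 237 promoters of genes that rose, 8.86% held it. Among the lists the share varied widely. It was 42.9% for chemokines (7 promoters), 30.0% for killer lectin-like receptors (10) and 25.0% for interferon-stimulated genes (24). For T cell receptor signalling (23 promoters) and glycolysis (24) it was 0. The motif was not tied to the S100 list beforehand, and what part AP-1 has in these rises was not tested.

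S100a10 and S100a11 encode S100 proteins that pair with annexins A2 and A1, and S100a10 does so without binding calcium. S100a11 (chromosome 3, 93520496 to 93526288) had 25.5, 21.6 and 34.98 CPM in Teff1 and 158, 129 and 159 in Tex. S100a10, its neighbour (chromosome 3, 93555117 to 93564645), had 88.97, 100.1 and 150.4 CPM in Teff1 and 454, 418 and 491 in Tex. In both genes every Tex library lay far above every Teff1 library, with log2 fold changes of 2.44, SE 0.20, adjusted p = 9.08e-05 for S100a11 and of 2.01, SE 0.22, adjusted p = 0.00118 for S100a10. Teff2 had 112, 87.4 and 107 CPM of S100a11 and 405, 310.4 and 433 of S100a10. The day 5 libraries of equal replicate number deviated together (r = 0.83, 0.73 and 0.70), so a fit within these pairs was added after the data were examined, and it called 1.69% of 13096 genes. In it, S100a11 was also higher in Tex than in Teff2 (log2 fold change 0.54, adjusted p = 0.0135), and the difference of S100a10 did not pass (0.25, adjusted p = 0.198).

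Low on day 2, S100a6 (chromosome 3, 90612894 to 90614414), a calcium sensor also called calcyclin, had 2.09, 0.855 and 1.46 CPM in Teff1 and 20.7, 17.3 and 11.8 in Tex. Teff2 lay between them, at 6.63, 8.84 and 6.34 CPM. The log2 fold change against Teff1 was 3.49, SE 0.54, adjusted p = 0.00706, and S100a6 was higher in Tex than in Teff2 within pairs (1.17, adjusted p = 0.0149). Lmna (chromosome 3, 88481148 to 88509932), which sets the stiffness of the nucleus and also belongs to the chromatin architecture list, had 1.14, 0.713 and 0.849 CPM in Teff1 and 12.4, 13.2 and 14.3 in Tex, with Teff2 at 1.84, 3.68 and 4.73. Its 3 Tex libraries lay within 2 CPM of each other, the log2 fold change was 3.87, SE 0.56, adjusted p = 0.00479, and the log2 fold change against Teff2 within pairs was 2.00, adjusted p = 0.00401. S100a4, a regulator of cell motility near S100a6, rose from 0.185 ± 0.182 to 2.27 ± 1.10 CPM, S100a1 from 3.17 ± 1.08 to 11.8 ± 1.87 and S100a13 from 22.1 ± 4.94 to 42.1 ± 9.001. In Teff1 the mean of S100a4 was about that of 3 counts in a library (0.143 to 0.182 CPM). These 4 S100 genes, S100a1, S100a13, S100a4 and S100a6, lie on chromosome 3 between 90511034 and 90614414. Of 13 S100a genes of that chromosome in the file, 7 were tested and 6 rose, the seventh being S100a9 with no count in Tex.

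Lgals3, the galectin-3 gene (chromosome 14, 47373860 to 47386167), had 14.3, 2.33 and 1.88 CPM in Teff1 and 532, 81.1 and 175 in Tex. Replicate 1 was the highest library in both groups, and the lowest Tex library still exceeded the highest Teff1 library. The log2 fold change was 5.40, SE 1.002, adjusted p = 0.0162, with Teff2 at 60.5, 30.2 and 48.8 CPM. Lgals1, whose protein binds glycans and can be secreted, was more abundant, with 110.0, 246 and 338 CPM in Teff1 and 578, 1001 and 1247 in Tex (2.03, SE 0.47, adjusted p = 0.0405). Anxa2, which binds membranes in a calcium-dependent way, had 43.96, 66.2 and 72.4 CPM in Teff1 and 273, 538 and 541 in Tex, where replicate 1 was the lowest library of each group (2.89, SE 0.50, adjusted p = 0.0120). Anxa4 rose from 4.69 ± 1.63 to 19.5 ± 4.28 CPM, Anxa5 from 50.9 ± 14.1 to 119 ± 16.9 and Capg from 96.6 ± 17.998 to 332 ± 47.3. Members that did not pass included the intermediate filament gene Vim, with 249.7, 248 and 225 CPM in Teff1 and 402, 1250.4 and 1306 in Tex (2.03, SE 0.57, adjusted p = 0.0859), Anxa1 with a mean of 0.260 ± 0.102 and 1.23 ± 0.262 CPM (2.22, SE 0.73, adjusted p = 0.138) and Crip1 with 57.6 ± 25.7 and 101 ± 47.3 CPM. Of the 13 rises, 6, 4 and 7 remained called without Teff1 replicates 1, 2 and 3, then 10, 10 and 7 without Tex replicates 1, 2 and 3, and 6 without both replicates 1, while the median stayed between 1.31 and 1.83. Calls of S100a10, S100a11, S100a6 and Lmna held whichever of the 6 libraries was left out. Calls ended for Lgals3 without Teff1 replicate 2 or 3, for Anxa2 and Anxa4 without Teff1 replicate 1 or 2, for S100a1 without Teff1 replicate 2 or 3 or Tex replicate 3, and for Anxa5 without Teff1 replicate 1 or 2 or Tex replicate 3. They also ended for S100a13 without any 1 library but Tex replicate 2, for Lgals1 without any 1 library but Tex replicate 1, and for S100a4 and Capg without any 1 of the 6 libraries (highest adjusted p 0.148).

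**Figure D2:**
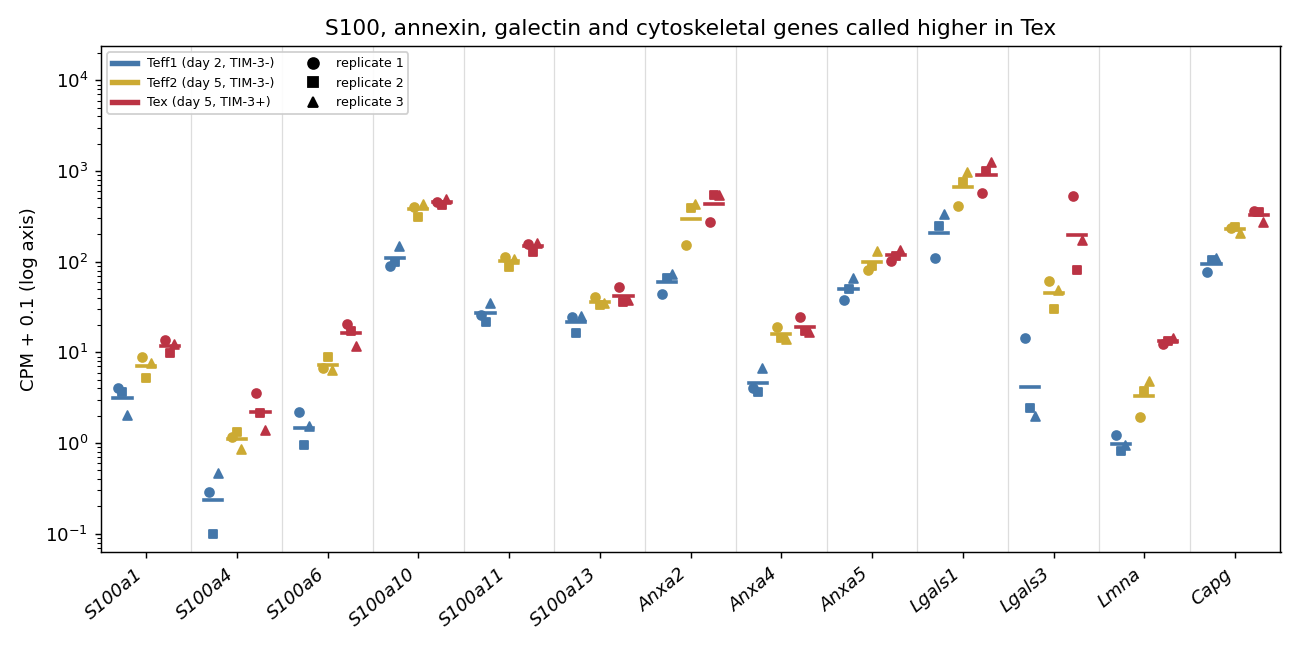
CPM plus 0.1 on a log axis for the 13 genes of the list called higher in Tex, with 1 point per library (shape gives the replicate number) and a bar at the geometric mean of each group. Tex libraries lie above all Teff1 libraries for each gene.

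Genes of cytotoxic granules and death ligands were mostly higher in direction, with few calls. Of 18 tested members of the granule and death-ligand list (23 in the file), 3 rose and none fell (also none at an unadjusted p under 0.05). Of all genes tested, 2.16% rose and 0.851% fell. Log2 fold changes were positive for 16 of the 18 (6965 of 14332 genes tested). At an unadjusted p under 0.05, 9 were higher (1342 of the genes tested). For 11 members all Tex libraries lay above the Teff1 libraries, as for 11.4% of all genes tested. The median log2 fold change of the list was 0.81 (from 0.50 without Tex replicate 1 to 0.99 without Teff1 replicate 1). DESeq2 called 6 of the 18 higher, against 662 of the 14332 genes tested. Gzmc, a granzyme of strongly stimulated T cells (chromosome 14, 56231397 to 56241647), had 0.476, 0.285 and 0.424 CPM in Teff1 and 140.0, 9.18 and 65.3 in Tex. The Tex libraries spread widely, with replicate 2 lowest, yet all lay above Teff1, and the log2 fold change was 7.48, SE 1.10, adjusted p = 0.00540. Teff2 had 14.6, 1.42 and 8.44 CPM, and Tex was higher than Teff2 within pairs (3.05, adjusted p = 5.03e-06). Its neighbours Gzmd, Gzme and Gzmf were too low to be tested. Gzmd had no count in Teff1 and 2.69, 0.108 and 0.988 CPM in Tex, so its mean in Tex was at least 8.11-fold higher with 3 counts in each Teff1 library taken as the floor. Gzme, also without a count in Teff1, was at least 3.60-fold higher. Gzmf had 1 count in Teff1 and 1.43, 0.324 and 0.416 CPM in Tex, a ratio of 41.9-fold (95% interval 7.09 to 1694). These granzymes are close copies, and reads may be shared among them. Gzmb, the main granzyme of effectors, had 1362, 4164 and 4568 CPM in Teff1 and 4719.6, 11027 and 10545 in Tex, the lowest Tex library being replicate 1. That difference did not pass (1.38, SE 0.80, adjusted p = 0.436), nor did those of the pore former Prf1 (20.9, 59.2 and 107 CPM in Teff1 and 243, 1042 and 648 in Tex; 3.37, SE 0.87, adjusted p = 0.0631) and of Gzma (1.33, 0.143 and 0.485 CPM in Teff1 and 6.59, 0.270 and 0.884 in Tex, which overlap). Nkg7, a granule membrane protein needed for their release, rose from 266 ± 36.1 to 573 ± 119.8 CPM (1.11, SE 0.26, adjusted p = 0.0441).

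Values follow for 5 serpins, a family of protease inhibitors that was not fixed as a list and whose other members were not counted. Serpinb9 (chromosome 13, 32997061 to 33017955), which blocks granzyme B inside the killer cell, had 79.98, 79.3 and 104 CPM in Teff1 and 281, 335 and 534 in Tex. No Tex library overlapped, the log2 fold change was 2.13, SE 0.32, adjusted p = 0.00613, and Tex was also higher than Teff2 (126, 172 and 283 CPM) within pairs (1.01, adjusted p = 0.00131). The adjoining Serpinb9b had 3 counts in Teff1 and 55.5, 8.48 and 47.4 CPM in Tex, a ratio of 726-fold (95% interval 248 to 3522), and the test gave a log2 fold change of 9.33, SE 1.54, adjusted p = 0.00959. Serpinb6a, a related serpin of the cell interior, had 13.7, 14.6 and 24.6 CPM in Teff1 and 68.9, 84.6 and 105 in Tex (2.29, SE 0.31, adjusted p = 0.00357), while Teff2 had 50.7, 72.4 and 104. Serpinb6b, with 81.5, 89.3 and 103 CPM in Teff1 and 199, 335 and 984 in Tex, did not pass (2.47, SE 0.66, adjusted p = 0.0698). Serpine2, a secreted protease inhibitor, rose from 16.7, 9.98 and 8.67 CPM in Teff1 to 374, 102 and 124 in Tex (4.08, SE 0.65, adjusted p = 0.00819). Serpinb6a, Serpinb6b and Serpine2 were picked after their values were seen, and Serpinb9b and Serpinb9 are similar in sequence. Calls of Gzmc, Serpinb9 and Serpinb6a held whichever of the 6 libraries was left out. Calls ended for Serpinb9b and Serpine2 without Teff1 replicate 2, and for Nkg7 without any 1 library but Tex replicate 1 (highest adjusted p 0.167).

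**Figure D3:**
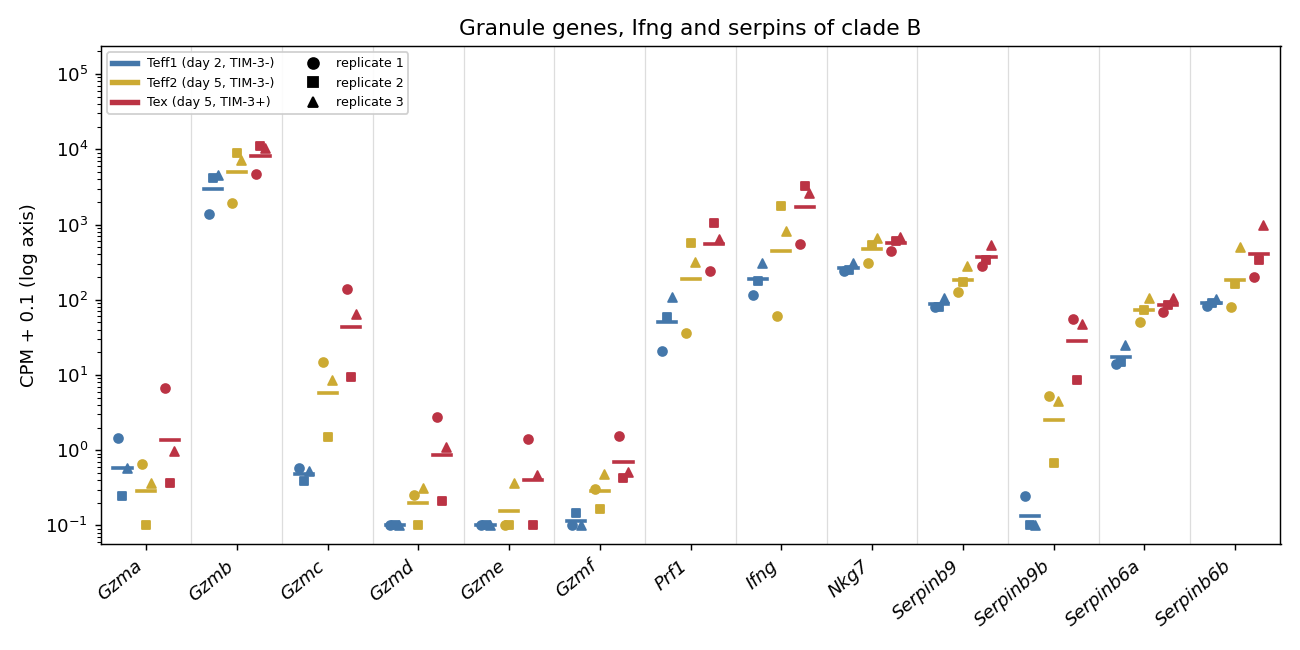
CPM plus 0.1 on a log axis for 6 granzymes, Prf1, Ifng, Nkg7 and 4 serpins, 1 point per library (shape gives the replicate number) with a bar at the geometric mean of each group. Gzmc and Serpinb9b rise stepwise in the means from Teff1 through Teff2 to Tex, while Gzmb and Gzma libraries spread widely within the groups.

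Receptors shared with natural killer cells were higher throughout in direction. All 14 tested killer lectin-like receptor genes had positive log2 fold changes (6965 of 14332 genes tested did), with a median of 2.46. By the test 2 of them rose, against 2.16% of all genes tested, and none had an unadjusted p under 0.05 in the other direction. DESeq2 called 7 of the 14 higher, against 662 of the 14332 genes tested. These receptors are a family of similar sequences, so reads may be shared among them. Klrc1 encodes NKG2A, an inhibitory receptor, and had 41.2, 24.1 and 21.7 CPM in Teff1 and 265, 211 and 352 in Tex (3.25, SE 0.72, adjusted p = 0.0334). Its partner Klrd1, which encodes CD94, had 86.5, 48.2 and 26.7 CPM in Teff1 and 234, 162 and 169 in Tex (1.81, SE 0.34, adjusted p = 0.0168). Neither overlapped between groups, and Teff2 had 131, 225 and 404 CPM of Klrc1 and 209.8, 169.8 and 223 of Klrd1. Klrk1, the activating receptor NKG2D, had 84.4, 185 and 107 CPM in Teff1 and 236, 299 and 391 in Tex and did not pass (1.30, SE 0.37, adjusted p = 0.0880). Klrg1, a receptor of terminal effectors, was nearly silent, with 1 count in Teff1 and 0.934, 0.0540 and 0 CPM in Tex. The NK cell marker sum given above was also higher in each Tex library than in any Teff1 library. Of its receptor genes, Ncr1 was at or under 0.604 CPM in every library, the highest value being that of Tex replicate 1. Klre1 had 0.904, 0.570 and 0.788 CPM in Teff1 and 7.20, 4.27 and 6.19 in Tex. Klrb1c had means of 0.115 and 0.596 CPM. The part of NK cells was not tested. With 1 library left out the median ran from 1.39 without Tex replicate 1 to 3.01 without Teff1 replicate 1.

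Of 20 tested inhibitory receptor genes, 3 rose and 1 fell (2.16% and 0.851% of all genes tested did), with a median of 0.20 (from 0.18 without Tex replicate 3 to 0.58 without Tex replicate 1). Besides Klrc1 and Havcr2, the sort gene, the third was Cd244, the receptor 2B4, which had 1 count in Teff1 and 3.96, 0.594 and 1.51 CPM in Tex, a ratio of 117-fold (95% interval 20.6 to 4671), and the test gave a log2 fold change of 6.40, SE 1.22, adjusted p = 0.0185. Btla, which restrains T cells through the ligand HVEM, fell from 160.2, 162 and 164 CPM in Teff1 to 74.8, 60.3 and 53.6 in Tex. The 3 Teff1 libraries were nearly equal, Teff2 had 85.8, 89.1 and 98.1 CPM, and the log2 fold change was -1.37, SE 0.22, adjusted p = 0.00948. Other receptors of exhausted cells did not pass. Lag3 had 207, 247 and 166 CPM in Teff1 and 137, 256 and 338 in Tex, Ctla4 252, 344 and 251 in Teff1 and 67.5, 344 and 536 in Tex, and Tigit 46.96, 80.4 and 62.8 in Teff1 and 90.1, 129 and 178 in Tex. Lag3 and Ctla4 overlapped between groups, and Ctla4 ran from the lowest to the highest value within Tex. Entpd1, the ectoenzyme CD39, had 0.856, 1.62 and 0.788 CPM in Teff1 and 2.25, 4.81 and 15.04 in Tex (2.75, SE 0.78, adjusted p = 0.0857), and Cd160 64.6 ± 19.4 and 30.9 ± 8.89 (-1.07, SE 0.29, adjusted p = 0.0797). The call of Btla held whichever of the 6 libraries was left out. Calls ended for Klrd1 without Teff1 replicate 2, for Cd244 without Teff1 replicate 1, 2 or 3, and for Klrc1 without any 1 of the 6 libraries (highest adjusted p 0.142).

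Transcription factors tied to exhaustion moved singly. Of 17 tested, 1 rose and 1 fell (2.16% and 0.851% of all genes tested did), and the median was 0.01 (from -0.11 without Tex replicate 2 to 0.16 without Tex replicate 3). Rbpj, the DNA-binding partner of Notch, had 460.0, 309 and 219 CPM in Teff1 and 789.5, 727 and 763 in Tex (1.21, SE 0.24, adjusted p = 0.0210), and its near copy Rbpsuh-rs3 was also called (adjusted p = 0.0376), so reads may be shared. Ikzf3, the Ikaros family factor Aiolos, fell from 275, 168 and 154 CPM in Teff1 to 106, 74.8 and 99.8 in Tex (-1.09, SE 0.23, adjusted p = 0.0287). Tox, a driver of exhaustion in chronic infection and tumours, had 17.1, 32.1 and 25.1 CPM in Teff1 and 10.5, 12.1 and 10.1 in Tex. Its Tex libraries were the lower ones without overlap, but the difference did not pass (-1.18, SE 0.29, adjusted p = 0.0543). Nr4a1 and Irf4, induced by T cell receptor signals, had log2 fold changes of -0.53, SE 0.55, adjusted p = 0.709 and -0.02, SE 0.57, adjusted p = 0.994, and Prdm1, which encodes Blimp-1, had 0.618, 2.14 and 1.52 CPM in Teff1 and 1.04, 9.18 and 12.4 in Tex.

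Among 19 factors of effector fate, 1 rose and 2 fell, against 2.16% and 0.851% of all genes tested (median 0.36, from 0.20 without Teff1 replicate 3 to 0.88 without Teff1 replicate 1). Runx2 had 23.4, 5.47 and 5.46 CPM in Teff1 and 83.9, 40.2 and 107 in Tex (2.74, SE 0.67, adjusted p = 0.0481), while its relative Runx1 fell from 15.7, 12.3 and 9.58 CPM in Teff1 to 2.69, 5.02 and 3.43 in Tex (-1.75, SE 0.32, adjusted p = 0.0162). Ets1, a factor that maintains resting T cells, fell from 509, 524 and 453 CPM in Teff1 to 253, 309.9 and 293 in Tex (-0.80, SE 0.14, adjusted p = 0.0127), and Ikzf1, the founding Ikaros factor, from 599, 563 and 566 in Teff1 to 333, 369 and 342 in Tex (-0.73, SE 0.15, adjusted p = 0.0250). For each of these 4 genes the groups did not overlap. Runx1, Ets1 and Ikzf1 are also among the largest falls, for which lack of overlap was a condition. Tbx21, the effector factor T-bet, had 90.4 ± 12.96 CPM in Teff1 and 95.5 ± 20.3 in Tex, and Id2 had 30.8 ± 4.39 and 53.4 ± 8.02 (0.79, SE 0.21, adjusted p = 0.0683). Calls ended for Ets1 without Teff1 replicate 2 or Tex replicate 1 or 3, for Rbpj without Teff1 replicate 2 or 3 or Tex replicate 1 or 3, for Runx1 without Teff1 replicate 1 or 2 or Tex replicate 1 or 3, and for Ikzf3 without any 1 library but Teff1 replicate 3. They also ended for Runx2 without any 1 library but Teff1 replicate 1, and for Ikzf1 without any 1 of the 6 libraries (highest adjusted p 0.177).

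Genes of naive and memory cells were mostly lower in direction, with 21 of 24 log2 fold changes negative (7307 of 14332 genes tested) and a median of -0.48. Of these genes 3 fell and 2 rose, against 0.851% and 2.16% of all genes tested. Slamf6, a surface receptor of stem-like T cells (chromosome 1, 171917458 to 171948958), had 41.1, 22.5 and 41.3 CPM in Teff1 and 9.23, 4.27 and 7.60 in Tex, with 27.3, 7.87 and 19.3 in Teff2. The log2 fold change was -2.31, SE 0.42, adjusted p = 0.0147, and Tex was lower than Teff2 within pairs (-1.31, adjusted p = 0.00724). Nsg2, a gene typical of recent thymic emigrants and naive cells, fell from 35.5, 33.9 and 33.2 CPM in Teff1 to 8.90, 15.4 and 16.8 in Tex (-1.32, SE 0.21, adjusted p = 0.00908), and Teff2 had 13.1, 13.1 and 15.2. Ccr9, the gut-homing receptor, was low in both groups, at 1.96 ± 1.79 and 0.181 ± 0.129 CPM (-3.41, SE 0.83, adjusted p = 0.0489). Against the direction of the list, Il7r, the receptor for the survival cytokine IL-7, rose from 33.4, 61.7 and 23.8 CPM in Teff1 to 84.4, 135 and 201 in Tex (1.82, SE 0.44, adjusted p = 0.0460), and Btg2, an antiproliferative gene of quiescent cells, from 52.7 ± 9.90 to 84.1 ± 9.83 (0.68, SE 0.16, adjusted p = 0.0458). Tcf7, which encodes the memory factor TCF-1, had 303, 252 and 232 CPM in Teff1 and 251, 106 and 70.3 in Tex, where replicate 1 overlaps with Teff1, and did not pass (-0.88, SE 0.47, adjusted p = 0.390). Lef1 had 156 ± 43.2 and 85.9 ± 20.7 CPM (-0.86, SE 0.31, adjusted p = 0.177), and the homing receptor Ccr7 overlapped between groups. The call of Nsg2 held whichever of the 6 libraries was left out. Calls ended for Slamf6 without Tex replicate 3, for Ccr9 without any 1 library but Teff1 replicate 2, for Il7r without any 1 library but Tex replicate 1, and for Btg2 without any 1 library but Teff1 replicate 1 (highest adjusted p 0.182).

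Activation and costimulation genes were split. Of 27 tested, 2 rose and 1 fell, against 2.16% and 0.851% of all genes tested (median 0.08, from 0.02 without Tex replicate 2 to 0.30 without Teff1 replicate 1). Tnfrsf9, the costimulatory receptor 4-1BB, had 504, 582 and 453 CPM in Teff1 and 911, 1310.3 and 1402 in Tex (1.24, SE 0.26, adjusted p = 0.0295). Cd80 rose from 8.42, 25.1 and 6.91 CPM in Teff1 to 66.9, 104 and 129.5 in Tex (2.89, SE 0.55, adjusted p = 0.0192), whereas Cd86, the other ligand of CD28 and CTLA-4, fell from 6.66, 4.90 and 3.64 in Teff1 to 1.10, 2.27 and 1.51 in Tex (-1.64, SE 0.34, adjusted p = 0.0268). Neither ligand overlapped between groups. Il2ra had 692, 956 and 858 CPM in Teff1 and 984, 1158 and 1216 in Tex and did not pass (0.42, SE 0.37, adjusted p = 0.653).

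Of 17 secreted cytokines tested, 3 rose and none fell, against 2.16% and 0.851% of all genes tested (median 0.47, from 0.42 without Teff1 replicate 3 to 0.96 without Teff1 replicate 1). Csf2, which encodes GM-CSF, had 0.856, 1.62 and 0.364 CPM in Teff1 and 27.5, 14.1 and 6.76 in Tex (4.07, SE 0.72, adjusted p = 0.0130), and Spp1, which encodes osteopontin, 15.7, 21.2 and 50.3 CPM in Teff1 and 166, 382 and 270.2 in Tex (3.23, SE 0.64, adjusted p = 0.0222). Il24 had 1 count in Teff1 and 3.79, 2.97 and 1.92 CPM in Tex, a ratio of 169-fold (95% interval 29.8 to 6697), and the test gave a log2 fold change of 6.92, SE 1.12, adjusted p = 0.00908. Ifng, the main effector cytokine, had 117, 179.7 and 311 CPM in Teff1 and 558, 3282 and 2655 in Tex, without overlap. With replicate 1 several times lower than the other Tex libraries, its difference did not pass (3.42, SE 1.15, adjusted p = 0.144). Tnf had 45.5 ± 8.29 and 95.8 ± 14.1 CPM (1.07, SE 0.34, adjusted p = 0.122), and Il2 2.05, 0.428 and 1.58 in Teff1 and 0.604, 0.0540 and 0 in Tex. None of 10 chemokines tested was called by edgeR (median 0.98, or 0.94 with a member at 0 counts in 1 group set at the floor). That median ran from 0.06 without Tex replicate 1 to 1.61 without Teff1 replicate 1. DESeq2 called 1 higher, against 662 of the 14332 genes tested. At an unadjusted p under 0.05, 1 chemokine was higher, against 1342 of the genes tested. Ccl3, Ccl4 and Xcl1 overlapped between groups.

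Of 20 chemokine and egress receptors, Ltb4r1, a leukotriene B4 receptor, rose and Ccr9 fell (median 0.02, from -0.10 without Tex replicate 1 to 0.34 without Teff1 replicate 1). Ltb4r1 had 2 counts in Teff1 and 1.32, 0.756 and 1.87 CPM in Tex, a ratio of 38.7-fold (95% interval 10.3 to 326), and the test gave a log2 fold change of 4.97, SE 0.91, adjusted p = 0.0157. Among 25 integrins and adhesion genes, 2 rose and 2 fell (median 0.30, from 0.24 without Tex replicate 1 to 0.46 without Teff1 replicate 2). For both lists of this paragraph, the shares over all genes tested are 2.16% higher and 0.851% lower. Itgav, the integrin alpha V chain, had 84.1, 65.3 and 51.2 CPM in Teff1 and 195, 129 and 213 in Tex (1.42, SE 0.22, adjusted p = 0.00746), and the tetraspanin Cd81 12.04 ± 3.27 and 38.4 ± 12.2 (1.67, SE 0.40, adjusted p = 0.0463). Cd226, the activating receptor DNAM-1, fell from 57.2, 48.3 and 64.1 CPM in Teff1 to 21.9, 24.6 and 21.2 in Tex (-1.33, SE 0.20, adjusted p = 0.00629), and the laminin receptor chain Itga6 from 81.8 ± 23.4 to 37.6 ± 8.10 (-1.12, SE 0.25, adjusted p = 0.0332). Calls of Itgav and Cd226 held whichever of the 6 libraries was left out. Calls ended for Il24 without Teff1 replicate 2, for Csf2 without Teff1 replicate 1 or 3, for Cd80 without Teff1 replicate 1 or 3 or Tex replicate 3, and for Ltb4r1 without Teff1 replicate 1 or 2 or Tex replicate 3. They also ended for Cd86 without Teff1 replicate 1 or 2 or Tex replicate 1 or 3, for Spp1 without Teff1 replicate 1 or 2 or Tex replicate 2 or 3, for Tnfrsf9 and Cd81 without any 1 library but Tex replicate 1, and for Itga6 without any 1 of the 6 libraries (highest adjusted p 0.157).

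Among called genes without overlap between the groups, the largest rises lay in genes nearly silent on day 2. Igfbp2, which binds insulin-like growth factors (chromosome 1, 72824480 to 72852474), had 0, 0.0475 and 0.182 CPM in Teff1 and 11.2, 24.9 and 28.6 in Tex (8.14, SE 0.88, adjusted p = 0.00102). Upp1, uridine phosphorylase 1 (chromosome 11, 9118008 to 9136170), had 0.0476, 0.0951 and 0.243 CPM in Teff1 and 62.6, 34.99 and 23.05 in Tex (8.30, SE 0.65, adjusted p = 3.03e-04). Slc16a11, a transporter of the monocarboxylate family (chromosome 11, 70213695 to 70216414), had 0.190, 0.475 and 0.424 CPM in Teff1 and 32.9, 24.6 and 41.2 in Tex (6.48, SE 0.48, adjusted p = 7.40e-05). In all 3 the lowest Tex library exceeded the highest Teff1 library by more than 50-fold. Teff2 had 47.96, 26.2 and 21.8 CPM of Upp1 (Tex against Teff2 within pairs 0.29, adjusted p = 0.192), and 7.35, 6.45 and 14.8 of Slc16a11, which was higher in Tex (within pairs 1.83, adjusted p = 0.00101). Ttc39c rose from 1.16 ± 1.05 to 91.4 ± 51.6 CPM (6.26, SE 0.94, adjusted p = 0.00629), and AI836003 from 0.242 ± 0.285 to 16.8 ± 9.40 (6.03, SE 0.85, adjusted p = 0.00427). Gldc, the glycine decarboxylase of mitochondria, had 0.333, 0.143 and 0.243 CPM in Teff1 and 2.86, 15.5 and 29.97 in Tex (6.03, SE 1.21, adjusted p = 0.0241), and the orphan receptor gene Gpr141, with 3 counts in Teff1, 4.50, 4.37 and 27.3 CPM in Tex, a ratio of 239.7-fold (95% interval 81.7 to 1165), and the test gave a log2 fold change of 7.71, SE 1.32, adjusted p = 0.0116. Serpinb9b, Gzmc and Havcr2, described above, complete the 10 largest. Axl, picked after its values were seen, had 18.8, 15.6 and 19.2 CPM in Teff1, 100.5, 91.6 and 114 in Tex and 96.1, 82.4 and 107 in Teff2 (Tex against Teff1 2.51, SE 0.18, adjusted p = 5.54e-05).

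Among the 10 largest falls, Rnf144a, a ubiquitin ligase (chromosome 12, 26306794 to 26415319), had 16.4, 12.4 and 7.88 CPM in Teff1 and 1.15, 2.48 and 0.884 in Tex (-3.02, SE 0.37, adjusted p = 0.00187). Trib2, a pseudokinase, had 52.6, 71.3 and 36.9 CPM in Teff1 and 6.59, 13.2 and 9.88 in Tex (-2.44, SE 0.28, adjusted p = 0.00157), and Il6ra, the IL-6 receptor alpha chain (chromosome 3, 89869324 to 89913196), 19.5, 23.2 and 18.6 in Teff1 and 4.34, 4.10 and 4.53 in Tex (-2.24, SE 0.20, adjusted p = 1.75e-04). None of the 3 overlapped, which was a condition for choosing the largest falls. Teff2 had 2.81, 2.52 and 1.99 CPM of Rnf144a, 12.1, 12.6 and 9.41 of Trib2 and 4.34, 6.90 and 5.75 of Il6ra. The innate sensor Nod1 fell from 12.4 ± 2.64 to 2.65 ± 1.32 CPM (-2.23, SE 0.39, adjusted p = 0.0127), the urea transporter Slc14a1 from 31.6 ± 12.2 to 7.19 ± 4.67 (-2.13, SE 0.48, adjusted p = 0.0346) and the sialyltransferase St6gal1 from 39.97 ± 4.52 to 10.8 ± 5.73 (-1.88, SE 0.38, adjusted p = 0.0251). Fam26f fell from 12.01 ± 2.79 to 3.31 ± 1.11 CPM (-1.86, SE 0.32, adjusted p = 0.0116). Slamf6 and Runx1 above and Ifi203 below are the other three. Among abundant genes, the largest falls in CPM were those of Samhd1, a nucleotide hydrolase that limits viruses, from 560.3, 467 and 467 CPM in Teff1 to 176, 241 and 322 in Tex (-1.02, SE 0.23, adjusted p = 0.0346), of Ikzf1 and Ets1 above, and of Chd3, a chromatin remodeller (291 ± 32.2 to 120.3 ± 23.7; -1.27, SE 0.27, adjusted p = 0.0287), Inpp4b, a phosphoinositide phosphatase (351 ± 82.6 to 171 ± 14.7; -1.04, SE 0.18, adjusted p = 0.0124), and Eif4enif1, which shuttles the cap-binding factor eIF4E (383 ± 76.01 to 209 ± 38.6; -0.87, SE 0.21, adjusted p = 0.0441). Calls of Igfbp2, Upp1, Slc16a11, Ttc39c, AI836003, Axl, Rnf144a, Trib2 and Il6ra held whichever of the 6 libraries was left out. Calls ended for Nod1, Fam26f and Inpp4b without Tex replicate 3, for Gpr141 without Teff1 replicate 1, 2 or 3, for Gldc without Teff1 replicate 1, 2 or 3 or Tex replicate 3, and for Slc14a1 and St6gal1 without any 1 library but Tex replicate 2. They also ended for Samhd1 without any 1 library but Tex replicate 3, for Chd3 without any 1 library but Tex replicate 1, and for Eif4enif1 without any 1 of the 6 libraries (highest adjusted p 0.178).

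Interferon-stimulated genes had a median log2 fold change of 0.08 over 34 members, of which none rose (none at an unadjusted p under 0.05, none by DESeq2). Of the 34, 3 fell, against 0.851% of all genes tested. The 3 that fell are the tetratricopeptide genes Ifit1, Ifit2 and Ifit3, which block viral RNA translation and lie beside each other on chromosome 19. The promoters of Ifit1 and Ifit3 are shown for their matches to the interferon-stimulated response element, in capitals (the letters GAAA, any 2 bases, and GAAA on either strand), read as for those above.
Ifit1 (chr19:34640639-34640888, plus strand): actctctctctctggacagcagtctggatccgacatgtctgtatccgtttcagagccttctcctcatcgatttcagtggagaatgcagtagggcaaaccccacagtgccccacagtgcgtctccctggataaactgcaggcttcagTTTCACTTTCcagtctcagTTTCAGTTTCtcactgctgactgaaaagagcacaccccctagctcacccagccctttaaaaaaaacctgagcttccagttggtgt
Ifit3 (chr19:34583279-34583528, plus strand): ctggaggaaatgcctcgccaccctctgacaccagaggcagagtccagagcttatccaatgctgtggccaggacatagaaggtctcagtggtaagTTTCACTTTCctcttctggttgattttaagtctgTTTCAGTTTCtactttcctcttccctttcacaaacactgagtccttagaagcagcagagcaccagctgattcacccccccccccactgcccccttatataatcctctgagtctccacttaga
Each has 2 matches on the opposite strand, which begin 104 and 85 bases before the start in Ifit1 and 156 and 122 in Ifit3, and none overlaps another motif searched. Ifit2, the third gene that fell, has no match in its 250 bases. That window (34550444 to 34550693) runs past 34550550, where its gene position begins. It therefore covers the bases before that position only in part. Of 24 promoters of the list, 13 held the motif in the longer window (54.2%), against 3.49% of all promoters, 3.20% of the genes tested and 7.37% of the 95 promoters of genes that fell. Ifit2 had 31.02, 31.8 and 28.98 CPM in Teff1 and 12.7, 18.04 and 16.7 in Tex (-0.95, SE 0.22, adjusted p = 0.0409), Ifit1 3.76, 9.32 and 8.43 in Teff1 and 1.43, 2.54 and 2.76 in Tex (-1.67, SE 0.37, adjusted p = 0.0337), and Ifit3 2.997, 5.09 and 5.27 in Teff1 and 0.330, 0.864 and 0.728 in Tex (-2.78, SE 0.39, adjusted p = 0.00427). Replicate 1 was the lowest library of both groups for Ifit1 and Ifit3, and the groups did not overlap for any of the 3. Another member, Isg15, a ubiquitin-like modifier, overlapped between groups, with 5.52, 62.02 and 35.4 CPM in Teff1 and 4.23, 50.5 and 48.6 in Tex and replicate 1 lowest in both groups. Ifi203, a DNA-sensor family gene of chromosome 1 outside the list, fell from 70.9, 118 and 101 CPM in Teff1 to 13.02, 31.9 and 26.6 in Tex (-2.02, SE 0.31, adjusted p = 0.00721), and Tex was lower than Teff2 within pairs (-1.08, adjusted p = 0.00909). The median of the list ranged from -0.27 without Teff1 replicate 1 to 0.49 without Teff1 replicate 2. Calls of Ifit3 and Ifi203 held whichever of the 6 libraries was left out. Calls ended for Ifit1 without any 1 library but Teff1 replicate 1, and for Ifit2 without any 1 of the 6 libraries (highest adjusted p 0.137).

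Genes of DNA replication were slightly lower in direction. Of 38 S phase genes, 37 had negative log2 fold changes (7307 of 14332 genes tested did), with a median of -0.54. At an unadjusted p under 0.05, 12 were lower, against 1026 of the genes tested. By the test 1 fell, against 0.851% of all genes tested. That gene was Ung, the uracil glycosylase of DNA repair, with 103, 69.4 and 91.4 CPM in Teff1 and 51.7, 50.5 and 41.9 in Tex (-0.87, SE 0.21, adjusted p = 0.0461). Mcm2, a subunit of the replicative helicase, had 284, 366 and 453 CPM in Teff1 and 159.8, 293 and 193 in Tex (-0.77, SE 0.27, adjusted p = 0.168). The median of this list was -0.29 without both replicates 1 and -0.31 without Tex replicate 1, the library with the lowest S phase level of its group. Of its 29 promoters found, 11 held an E2F motif (TTTCCCGC, TTTGGCGC or TTTCGCGC on either strand; 37.9%), against 1.91% of all promoters and 3.64% of the genes tested. None of 32 G2 and M phase genes was called by edgeR or DESeq2, none had an unadjusted p under 0.05, and their median was -0.14, which turned to 0.25 without Tex replicate 1, to 0.24 without both replicates 1 and to -0.47 without Tex replicate 2. Mki67, a marker of cycling cells, had 989, 885 and 782 CPM in Teff1 and 304, 715 and 809 in Tex, and the mitotic kinase Cdk1 89.3, 98.5 and 148 in Teff1 and 44.2, 208 and 137 in Tex, with replicate 1 lowest in Tex for both.

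Inhibitors of the cell cycle and p53 targets (33 tested, median 0.45, from 0.18 without Tex replicate 1 to 0.63 without Teff1 replicate 1) had 2 rises. For each list of this paragraph, the share of rises over all genes tested is 2.16%. Gadd45g, a stress-induced growth arrest gene, rose from 43.3, 33.6 and 33.2 CPM in Teff1 to 196, 161 and 95.7 in Tex (2.04, SE 0.44, adjusted p = 0.0307), and Cdkn2a, with 2 counts in Teff1, had 0.659, 0.594 and 0.572 CPM in Tex, a ratio of 17.8-fold (95% interval 4.56 to 153), and the test gave a log2 fold change of 3.89, SE 0.95, adjusted p = 0.0492. Cdkn1a, the inhibitor p21, had 133, 44.8 and 16.3 CPM in Teff1 and 698, 218 and 251 in Tex, with replicate 1 highest in both, and did not pass (2.59, SE 0.89, adjusted p = 0.157). Of 27 genes of the BCL2 family and caspases (median 0.45, from 0.19 without Teff1 replicate 3 to 0.44 without Tex replicate 2), the survival gene Bcl2l2 rose from 16.1 ± 1.53 to 45.1 ± 14.2 CPM (1.48, SE 0.26, adjusted p = 0.0129). Among 30 lysosome and autophagy genes (median 0.24), Grn, which encodes progranulin, rose from 25.6 ± 3.95 to 58.1 ± 9.69 (1.18, SE 0.26, adjusted p = 0.0346). Of 29 genes of glutathione, thioredoxin and metallothionein (median 0.10, from -0.02 without Teff1 replicate 1 to 0.35 without Teff1 replicate 3), the peroxidase Prdx5 rose from 69.7 ± 17.6 to 152 ± 12.004 CPM (1.13, SE 0.18, adjusted p = 0.00806) and Gsto1, a glutathione transferase, from 21.9 ± 5.77 to 49.2 ± 5.58 (1.17, SE 0.23, adjusted p = 0.0209). The call of Prdx5 held whichever of the 6 libraries was left out. Calls ended for Bcl2l2 without Teff1 replicate 2 or 3 or Tex replicate 3, for Gsto1 without Teff1 replicate 1 or 2 or Tex replicate 1 or 3, for Gadd45g without any 1 library but Tex replicate 3, and for Ung, Cdkn2a and Grn without any 1 of the 6 libraries (highest adjusted p 0.181).

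Over all 14332 genes tested, DESeq2 called 662 higher and 401 lower. At an unadjusted p under 0.05 by edgeR, 1342 were higher and 1026 lower. Of the 21 other lists, 19 held no called gene, and in each of these 0 to 7 members had an unadjusted p under 0.05 in 1 direction. DESeq2 called 0 to 3 in each direction. Among them were glycolysis (25 tested, median 0.21, with no unadjusted p under 0.05), the respiratory chain (38, median 0.18), cholesterol synthesis (26, median -0.03), cytosolic ribosomal proteins (38, median 0.11), ribosome biogenesis (35, median -0.26), T cell receptor signalling (29, median -0.05), the IL-2 and STAT5 response (28, median 0.33) and hypoxia-inducible genes (23, median 0.44). With 1 library left out, the median ran from -0.21 without Tex replicate 2 to 0.46 without Teff1 replicate 3 for glycolysis, from -0.12 without Tex replicate 2 to 0.59 without Tex replicate 1 for hypoxia-inducible genes, from -0.40 without Teff1 replicate 1 to 0.30 without Tex replicate 1 for cholesterol synthesis and from 0.06 without Teff1 replicate 1 to 0.35 without Teff1 replicate 3 for the respiratory chain. It ran from -0.41 without Teff1 replicate 1 to -0.02 without Teff1 replicate 3 for ribosome biogenesis, from -0.16 without Tex replicate 2 to 0.00 without Teff1 replicate 2 for T cell receptor signalling and from 0.17 without Tex replicate 1 to 0.37 without Tex replicate 3 for the IL-2 and STAT5 response. The glycolytic enzyme gene Hk2 had 116, 147 and 204 CPM in Teff1 and 139, 217 and 148 in Tex, and the growth regulator Myc 404, 506 and 453 in Teff1 and 463, 493 and 316 in Tex, both overlapping. Chromatin architecture genes (29, median -0.41, from -0.52 without Tex replicate 3 to -0.24 without Tex replicate 1) had Lmna as the sole call, against 2.16% higher among all genes tested. Of 41 chromatin modifiers (median -0.21) 1 fell, against 0.851% of all genes tested. It was the methylcytosine oxidase Tet1, which fell from 8.13 ± 2.62 to 2.84 ± 1.04 CPM (-1.52, SE 0.31, adjusted p = 0.0261). Calls ended for Tet1 without Teff1 replicate 1 or 2 or Tex replicate 1 or 3 (highest adjusted p 0.116).

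**Figure D4:**
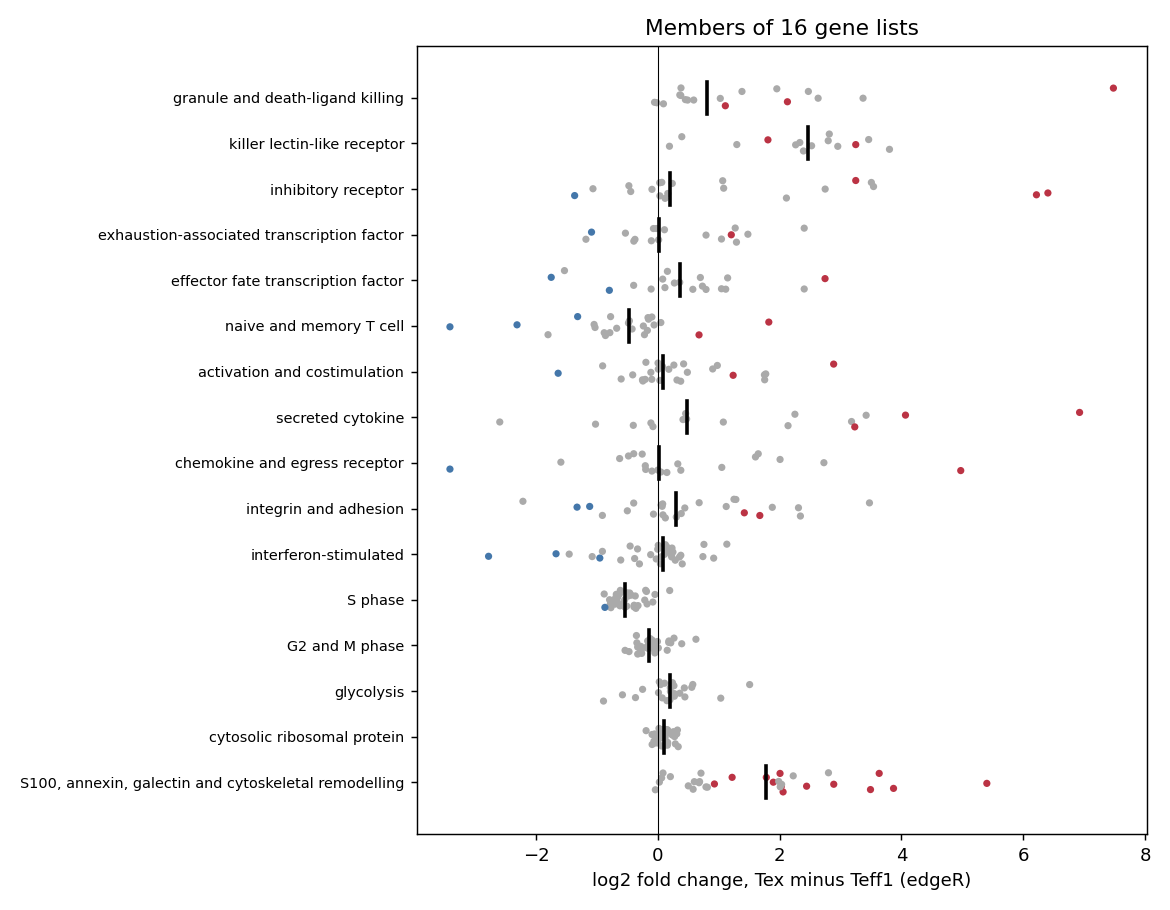
Log2 fold change of Tex against Teff1 for each tested member (1 point) of 16 lists, red where called higher, blue where called lower and grey where not called, with a black bar at the median of the list. Medians stand furthest to the right for the killer lectin-like receptors (2.46) and the S100, annexin and galectin list (1.78) and furthest to the left for S phase (-0.54).

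The plot of deviations by library shows the median deviation over the members of a list, while each test uses the spread of its own gene. Replicate 1 was the lowest library of its group for cholesterol synthesis, G2 and M phase, interferon-stimulated genes, glycolysis and the S100, annexin and galectin list in both Teff1 and Tex. For the latter list the median deviation of each library was at most 0.31 in size. Members that deviate in opposite directions cancel in such a median. Replicate 1 was the highest library of each group for Lgals3 and the lowest for Anxa2, so single genes of the list spread more widely.

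**Figure D5:**
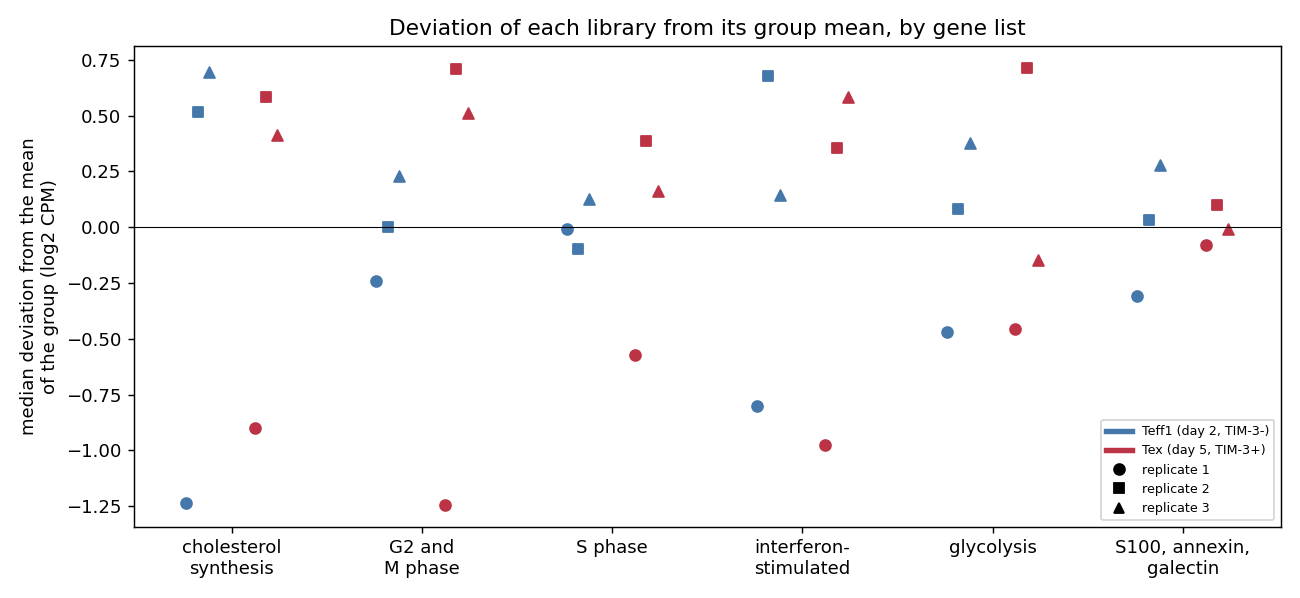
Median deviation of each library from the mean of its group, on the log2 CPM scale, for 6 gene lists, with blue points for Teff1, red points for Tex and shapes for the replicate number. Circles (replicate 1) lie lowest in both groups for 5 of the lists, down to -1.24, and for S phase in Tex only. Points of the S100, annexin and galectin list run from -0.31 to 0.28.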

How the data were processed

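RNA-seq was read as 12 libraries, grouped by sample labels. The deposited values are gene counts, for which the submitters' processing notes name HISAT2, HTSeq and mm10, and the authors' normalized log2 values, for which the deposited file states no method (the notes also name DESeq2, BWA and Juicer). Counting settings, strand included, are not given in the sources used here, so near copies such as Rbpj and Rbpsuh-rs3 may share reads. From the counts, R 4.3.3 with edgeR 4.0.16 kept genes passing filterByExpr, scaled libraries by TMM and fitted 1 quasi-likelihood model over the 12 libraries, with group as the only term. p-values were adjusted by Benjamini-Hochberg over 14332 genes and called under 0.05. CPM use TMM-scaled library totals. Gene positions are those of RefSeq on GRCm38.p6, matched by symbol. Intervals of count ratios are exact 95% binomial ones and cover counting error only.

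The members and all 40 gene lists were chosen with earlier results of these data known. Genes named are the 10 largest rises and falls with a mean of at least 10 CPM, the 6 with the largest difference in CPM each way, up to 4 and 2 called members of a list, genes of the proteins used in the sort and the most abundant gene of each marker list, with others named as context. The largest rises, falls and differences in CPM were taken only from called genes without overlap between the groups. Predicted genes, pseudogenes and antigen receptor segments were left out of them. Their lack of overlap is thus part of the choice and no finding. Alternatives were RLE and upper-quartile scaling, DESeq2 1.42.0, limma 3.58.1 (voom, and on the authors' log2 values), other filters, only the 6 libraries, a replicate block and leaving out libraries. Some genes are not reported here.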

Additional observations from a re-analysis of the deposited data

How the results depend on the processing

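The number of genes called between Tex and Teff1 was 431. It was 422 to 432 with other scalings (upper quartile 422, RLE 432) and 423 with limma voom. DESeq2 called 1063 genes (662 higher, 401 lower; at least 2-fold 516 and 155). With only the 6 libraries, 43 genes were lower, 41 of them at least 2-fold. Limma on the authors' normalized values gave 42 genes at least 2-fold lower. Leaving out both replicates 1 gave 121 calls (96 higher, 25 lower; at least 2-fold 95 and 25).

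Leaving out 1 library at a time gave 112 to 253 calls, 77 to 194 higher and 27 to 84 lower, and at least 2-fold 77 to 186 higher and 25 to 61 lower. Of 109 named genes called, 35 stayed called in all 6 of these fits and 41 without both replicates 1, and none changed direction in any fit. Fewer samples per fit is part of the construction of these alternatives.

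Equal replicate numbers matched Tex with Teff1 for number 1 but not for numbers 2 and 3. Tex replicate 1 had r = -0.32 and -0.39 with Teff1 replicates 2 and 3. Deviations from the group means correlated with r = 0.52, 0.27 and 0.03 for numbers 1, 2 and 3, and Tex replicates 2 and 3 correlated better with Teff1 replicates 3 (0.48) and 2 (0.18). With a replicate block on the 6 libraries, 674 genes were called (552 higher, 515 of them at least 2-fold), and with the replicate block on all groups 803 (557 higher, 246 lower; at least 2-fold 451 and 134). The block lowered the common dispersion, the spread shared by all genes, from 0.0922 to 0.0573 on the 6 libraries. Over all groups it lowered it from 0.0994 to 0.0581. The main fit has no such block. Depth allowed no statement on a gene under 3 counts in both groups.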

Other observations

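The genes of this paragraph belong to none of the lists and were picked after their values were seen. Myo10, a myosin of filopodia, had 10.2, 8.13 and 9.88 CPM in Teff1, 200.1, 125 and 177 in Tex and 128, 106 and 126 in Teff2 (log2 fold change of Tex against Teff1 4.15, SE 0.25, adjusted p = 2.22e-05). Ltbp3, which binds latent TGF-beta, rose from 0.143, 0.238 and 0.243 CPM in Teff1 to 12.7, 10.96 and 12.5 in Tex (5.82, SE 0.46, adjusted p = 9.08e-05). The laminin chain gene Lama5 rose from 6.80, 15.8 and 4.97 to 45.3, 75.1 and 90.1 CPM (2.93, SE 0.40, adjusted p = 0.00357), and Adam8, a membrane protease, from 2.69 ± 0.800 (SD, n = 3) to 83.6 ± 36.7 (4.95, SE 0.74, adjusted p = 0.00613). For each of these 4 genes the groups did not overlap and the call held whichever of the 6 libraries was left out. Cst3, an inhibitor of cysteine proteases, rose from 41.5 ± 2.53 to 182 ± 75.4 CPM (2.13, SE 0.34, adjusted p = 0.00819), and Maged2 from 2.91 ± 0.564 to 17.1 ± 0.544 (2.55, SE 0.23, adjusted p = 2.45e-04). Within pairs of the day 5 libraries, the log2 fold changes of Tex against Teff2 were 0.45, adjusted p = 0.0478 for Myo10, 1.08, adjusted p = 0.0176 for Ltbp3, 0.34, adjusted p = 0.150 for Lama5 and 2.09, adjusted p = 0.00909 for Adam8.

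Some called genes lay beside each other. Of the 423 called genes with coordinates on GRCm38.p6, 100 lay in 44 runs of 2 or more with gaps of at most 200 kb, and 39 of the runs moved in 1 direction. There were 6 runs of 3 or more. The S100 genes S100a1, S100a13, S100a4 and S100a6 formed 1 of them, on chromosome 3. On chromosome 19 (34550550 to 34662981) Ifit2, Ifit3, Gm14446, I830012O16Rik and Ifit1 were all lower in Tex. On chromosome 11 (70130125 to 70229798) Mgl2, Clec10a, Slc16a11 and Bcl6b were all higher. Clec10a and Mgl2, lectins of macrophages and dendritic cells, had no count in Teff1, and their means in Tex were at least 9.18 and 5.96-fold higher against 3 counts per library. Calls ended for Clec10a without Teff1 replicate 1, 2 or 3 or Tex replicate 1, for Mgl2 without any 1 library but Tex replicate 1, and for Bcl6b without any 1 of the 6 libraries (highest adjusted p 0.136). On chromosome 7 (140967429 to 141172851) Ifitm1, Pkp3 and Rnh1 were higher, and on chromosome 15 (78244164 to 78622019) Ncf4, Kctd17, C1qtnf6 and Cyth4. The run on chromosome 1 (171558718 to 172027318) was mixed, with Cd244 higher and Slamf1, Slamf6 and Vangl2 lower. No share of neighbouring pairs among all genes was computed.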
